A study of Mus musculus with 24 samples.

Results

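The 10 genes described here are listed as genes of fat cells and were measured in the ileum, the distal part of the small intestine: *Adipoq*, *Lep*, *Retn*, *Cfd*, *Plin1*, *Plin4*, *Cidec*, *Lipe*, *Lpl* and *Fabp4*. They were chosen by symbol and matched to the Ensembl identifiers of a read-count table of 55536 genes, and all 10 passed the filter on low counts that left 13505 genes for testing. Fat cells, or adipocytes, store triglyceride in a large lipid droplet and secrete hormones called adipokines. The small intestine is lined by epithelium, wrapped in smooth muscle and attached to the body wall by the mesentery, a sheet that carries vessels and fat. In white fat, *Lep* rises with the size of the fat store, and *Cfd* is known to be low in several obese mouse strains.

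RNA was sequenced from 24 C57BL/6N mice, an inbred laboratory strain, with 1 animal drawn per cage and 6 animals (3 males and 3 females) in each of 4 groups. Mice that entered at 4 to 5 weeks of age received a control diet (CD, 10 kcal% fat) or a diet rich in fat (HFD, with 60 kcal% from fat) for 20 weeks, and part of each diet group then received metformin, a glucose-lowering drug, in drinking water at 50 mg/kg/day for 10 weeks (CDmetf and HFDmetf). The groups without metformin stayed on their diet, and no group was on chow or had a genetic change. The comparisons ask how dietary fat and metformin change the intestinal transcriptome, and here whether adipocyte RNA followed those groups or single tissue pieces. Libraries are named by group, labelled sex and replicate number, such as CD M3. In bulk tissue, fewer cells of a type and less RNA per cell cannot be told apart.

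The libraries held about 1829690 to 40606400 reads on genes, with a median of 3467310, and 0 reads allow a level of up to 0.0730 to 1.48 CPM, depending on the library (3 counts, counting error only). CPM is the usual count of a gene's reads relative to the library total, here scaled by TMM, a correction for differences in RNA composition. The library CD M3 stood apart, with 10 genes taking 85.4% of its reads and a TMM factor of 0.205. A factor this low raises every CPM of CD M3. HFDmetf F2 had the fewest reads on genes, with 10 genes taking 36.6% of them, and 71.4% of its reads in the table were assigned to no gene. It was among the 3 highest libraries for *Adipoq*, *Lep*, *Retn*, *Plin4*, *Lpl* and *Fabp4*. The library labelled HFD M2 held 3355 reads on *Xist* and 0 on Y-linked genes, whereas the library labelled HFD F2 held 1 and 423, so both go against their sex labels.

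The promoters of 3 adipokines are shown because the results turn on their levels relative to each other. Each is the 250 bases before the start site, on the plus strand of GRCm38.p6 as listed in RefSeq, at chr6:29059971-29060220, chr16:23146286-23146535 and chr10:79890603-79890852. Capitals mark matches on either strand to TTGCNNAA, a site of the C/EBP factors that drive fat cell differentiation, and to CCAAT.
Lep: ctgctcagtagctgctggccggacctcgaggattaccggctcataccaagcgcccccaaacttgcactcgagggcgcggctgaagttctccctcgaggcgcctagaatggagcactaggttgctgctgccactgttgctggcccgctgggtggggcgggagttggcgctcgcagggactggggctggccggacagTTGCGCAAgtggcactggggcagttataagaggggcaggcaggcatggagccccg
Adipoq: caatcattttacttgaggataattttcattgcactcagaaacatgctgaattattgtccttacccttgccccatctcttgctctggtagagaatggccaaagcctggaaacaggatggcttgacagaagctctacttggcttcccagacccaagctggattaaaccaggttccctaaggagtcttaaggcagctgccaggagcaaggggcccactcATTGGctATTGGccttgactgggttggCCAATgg
Cfd: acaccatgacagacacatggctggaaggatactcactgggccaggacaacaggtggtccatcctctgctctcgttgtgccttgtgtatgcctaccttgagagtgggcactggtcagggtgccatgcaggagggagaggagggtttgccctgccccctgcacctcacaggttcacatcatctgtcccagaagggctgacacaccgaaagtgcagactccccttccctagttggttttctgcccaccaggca

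The *Lep* promoter held the full palindrome TTGCGCAA from base -55 to base -48, a motif present in 0.164% of 32851 promoters of the same length. The looser TTGCNNAA stood in 9.56% of them, including *Plin1* and *Cidec* among the members. *Adipoq* held CCAAT on 3 occasions, at bases -34, -27 and -7, against 33.8% of all promoters with at least 1 match, and *Cfd* held neither motif. The *Lep* window was rich in CpG, with 16 of them, while *Adipoq* had 0 and *Cfd* 2, against a median of 6. RefSeq entries were found for 8 of the 10 members, not for *Lpl* and *Fabp4*, and a match is a description of letters only.

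In GRCm38, the adipokine genes lie on 4 chromosomes, *Adipoq* (ENSMUSG00000022878) at chr16:23146536-23158028 on the plus strand, *Lep* (ENSMUSG00000059201) at chr6:29060220-29073877 on the plus strand, *Retn* (ENSMUSG00000012705) at chr8:3655770-3660110 on the plus strand and *Cfd* (ENSMUSG00000061780) at chr10:79890853-79892655 on the plus strand. The droplet coat genes are *Plin1* (ENSMUSG00000030546) at chr7:79720218-79732903 on the minus strand, *Plin4* (ENSMUSG00000002831) at chr17:56100591-56109803 on the minus strand and *Cidec* (ENSMUSG00000030278) at chr6:113424634-113435760 on the minus strand. The genes of fatty acid release, uptake and binding are *Lipe* (ENSMUSG00000003123) at chr7:25379527-25398710 on the minus strand, *Lpl* (ENSMUSG00000015568) at chr8:68880491-68907448 on the plus strand and *Fabp4* (ENSMUSG00000062515) at chr3:10204088-10208576 on the minus strand. A count is of reads over a gene's exons as a whole, so no value belongs to 1 exon or UTR.

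The members fell into a pair of level patterns. The adipokines *Adipoq*, *Lep*, *Retn* and *Cfd*, together with *Plin1*, were near or at 0 reads in some libraries and high in others. *Plin4*, *Cidec*, *Lipe*, *Lpl* and *Fabp4* were found in all 24 libraries. In 7 libraries (CD M1, CD M2, CD F3, CDmetf F2, HFD F2, HFDmetf M3 and HFDmetf F3) *Adipoq* had fewer than 3 reads. In these, *Lep* and *Retn* had 0 reads, *Cfd* at most 0.265 CPM and *Plin1* at most 0.874 CPM. The same 7 libraries held 36.5 to 101 CPM of *Lipe* and 12.4 to 36.9 CPM of *Cidec*, so those genes were read where the adipokines were not. The libraries near 0 came from all 4 groups, with 3 in CD, 1 in CDmetf, 1 in HFD and 2 in HFDmetf.

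**Figure D1:**
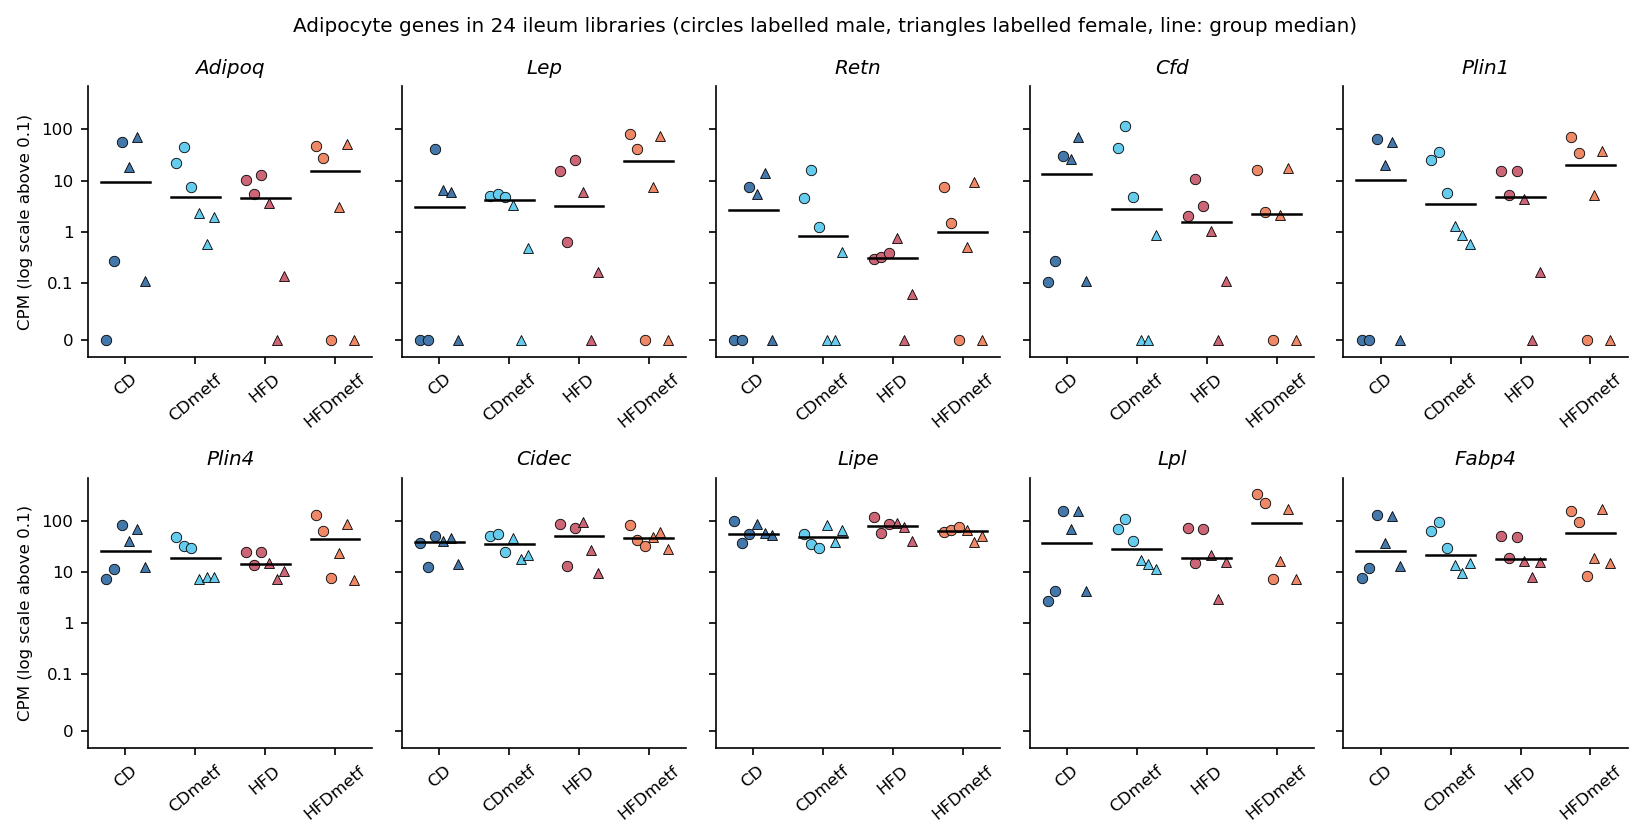
TMM-scaled CPM (log scale above 0.1) of the 10 genes in each of 24 libraries, by group; circles are labelled male, triangles labelled female and lines are group medians. The adipokines and Plin1 reach 0 in libraries of several groups, while Lipe stays between 30.03 and 121 CPM throughout.

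*Adipoq* encodes adiponectin, a hormone made almost only by fat cells. Its CPM ran from 0 to 70.2 in CD (median 9.43), from 0.583 to 45.6 in CDmetf (median 4.83), from 0 to 12.5 in HFD (median 4.53) and from 0 to 51.8 in HFDmetf (median 15.1). The highest libraries were CD F2, CD M3 and HFDmetf F2, and all 4 groups overlapped. *Lep* encodes leptin, which signals the size of the fat store to the brain. It ran from 0 to 41.5 CPM in CD (median 3.03), from 0 to 5.42 in CDmetf (median 4.08), from 0 to 24.7 in HFD (median 3.24) and from 0 to 81.7 in HFDmetf (median 24.5). The HFDmetf libraries M1 and F2 stood highest, yet 2 of the 6 HFDmetf libraries had no *Lep* read.

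*Cfd* encodes adipsin, a serine protease of the complement system. It ran from 0.102 to 70.6 CPM in CD (median 13.2), from 0 to 118 in CDmetf (median 2.79), from 0 to 10.9 in HFD (median 1.54) and from 0 to 17.3 in HFDmetf (median 2.25). The highest libraries were all on the control diet, and each group still reached 0.102 CPM or less. *Retn* encodes resistin, a secreted adipokine of mouse fat cells, and was the lowest of the 10 genes, with a median of 0.396 CPM over the 24 libraries. Its CPM ran from 0 to 14.05 in CD, from 0 to 16.3 in CDmetf, from 0 to 0.755 in HFD and from 0 to 9.37 in HFDmetf. The HFD libraries lay inside the range of every other group.

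*Plin1* encodes perilipin 1, the coat of the adipocyte droplet that gates lipolysis. It ran from 0 to 63.4 CPM in CD, from 0.587 to 35.6 in CDmetf, from 0 to 15.5 in HFD and from 0 to 70.9 in HFDmetf, much as *Adipoq* did. *Plin4*, a coat protein of small droplets, ran from 7.16 to 81.7 CPM in CD (median 26.1), from 7.26 to 47.9 in CDmetf (18.7), from 7.18 to 24.8 in HFD (14.1) and from 7.08 to 128 in HFDmetf (43.6). Its lowest library was at almost the same level in each group, and HFDmetf M1 was the highest of all. *Cidec*, which promotes droplet fusion, ran from 12.4 to 49.5 CPM in CD (median 38.4), from 17.8 to 54.7 in CDmetf (34.9), from 9.77 to 93.5 in HFD (49.8) and from 27.9 to 81.7 in HFDmetf (45.4). HFD F1 and HFD M1 were highest, while another HFD library was the lowest, and the groups overlapped.

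*Lipe* encodes hormone-sensitive lipase. Its level moved least among the members, from 30.03 to 121 CPM, with group medians of 56.3 (CD), 47.5 (CDmetf), 79.9 (HFD) and 63.4 (HFDmetf). *Lpl* encodes lipoprotein lipase, which frees fatty acids from circulating triglyceride, and ran from 2.76 to 158 CPM in CD (median 36.4), from 11.2 to 108 in CDmetf (28.2), from 2.96 to 71.2 in HFD (18.6) and from 7.36 to 334 in HFDmetf (92.6). Its 3 highest libraries were all in HFDmetf, and the other HFDmetf libraries lay among those of the remaining groups. *Fabp4*, a fatty acid carrier of fat cells, macrophages and capillary endothelium, ran from 7.57 to 132 CPM in CD (median 25.4), from 9.62 to 96.1 in CDmetf (21.96), from 8.02 to 51.1 in HFD (17.6) and from 8.23 to 168 in HFDmetf (56.9). The exons of *Plin4* and *Lipe* overlap genes of the other strand, *Hdgfl2* and 4732471J01Rik, and whether the deposited counts used strand was not stated, so their levels are uncertain to that extent.

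Per kilobase of exon, the median level over 24 libraries was highest for *Cidec* (22.3 CPM per kb) and *Lipe* (9.90). *Fabp4* (4.18), *Plin4* (3.28), *Adipoq* (3.28), *Cfd* (2.26), *Lpl* (1.82), *Lep* (1.45), *Plin1* (1.11) and *Retn* (0.251 CPM per kb) followed. The ranges of all neighbours in this order overlapped. In single libraries the order was another one: *Cfd* reached 128 CPM per kb in CDmetf M2, above the maximum of every other member.

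The level varied between libraries within groups far more than between groups. For *Adipoq*, *Lep*, *Retn*, *Cfd* and *Plin1*, the SD of log2 CPM over 24 libraries was 2.75 to 3.65, against a median of 0.41 over the 13505 genes tested, and all 5 lay at or above percentile 99.8. The 3 highest libraries held 46.3% (*Adipoq*) to 66.4% (*Cfd*) of each gene's summed CPM. Differences between the 4 group means accounted for 1.89% (*Plin1*) to 18.1% (*Lipe*) of the sum of squares of log2 CPM, with a median of 5.69% over the 10 members and 11.4% over all genes. Differences between the diets accounted for 0.0124% (*Plin1*) to 6.99% (*Lipe*), with a median of 1.21% against 1.86% over all genes.

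With each member's log2 CPM set against that of *Adipoq* over the 24 libraries, 8 of 9 relations passed a permutation test (100000 resamples, Benjamini-Hochberg over the 9). The test was not run over all genes, so the share of other genes that would pass is not known. The libraries also share differences in depth and composition, whose part in these relations was not tested. *Plin1* followed *Adipoq* most closely, with Pearson r = 0.983 and Spearman rho = 0.973. *Lpl* (r = 0.933, rho = 0.941), *Lep* (r = 0.913, rho = 0.869), *Fabp4* (r = 0.908, rho = 0.950), *Retn* (r = 0.906, rho = 0.892), *Cfd* (r = 0.903, rho = 0.884) and *Plin4* (r = 0.882, rho = 0.941) came next. For these 7 genes the permutation p was 1e-05, the smallest that the resamples can give (adjusted p = 1.29e-05). *Cidec* followed more loosely (r = 0.589, p = 0.00261, adjusted p = 0.00294; rho = 0.602). *Lipe* showed no relation to *Adipoq* (r = -0.08, permutation p = 0.726, adjusted p = 0.726; rho = -0.13, permutation p = 0.554). Without the 2 libraries farthest from the *Adipoq* median, r was 0.868 to 0.980 for the first 7, 0.643 for *Cidec* and 0.08 for *Lipe*. As deviations from the 4 group means, r was 0.913 to 0.988 for the 7 genes, 0.620 for *Cidec* and -0.00845 for *Lipe*. Within groups, too, *Lipe* showed no relation to *Adipoq*. Since 7 libraries lay near 0, the relations were also computed in the 17 libraries with at least 10 reads on *Adipoq* and *Plin1* together. There, r with *Adipoq* was 0.766 (*Lep*) to 0.971 (*Plin1*) for the 7 genes, 0.583 for *Cidec* and -0.10 for *Lipe*.

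**Figure D2:**
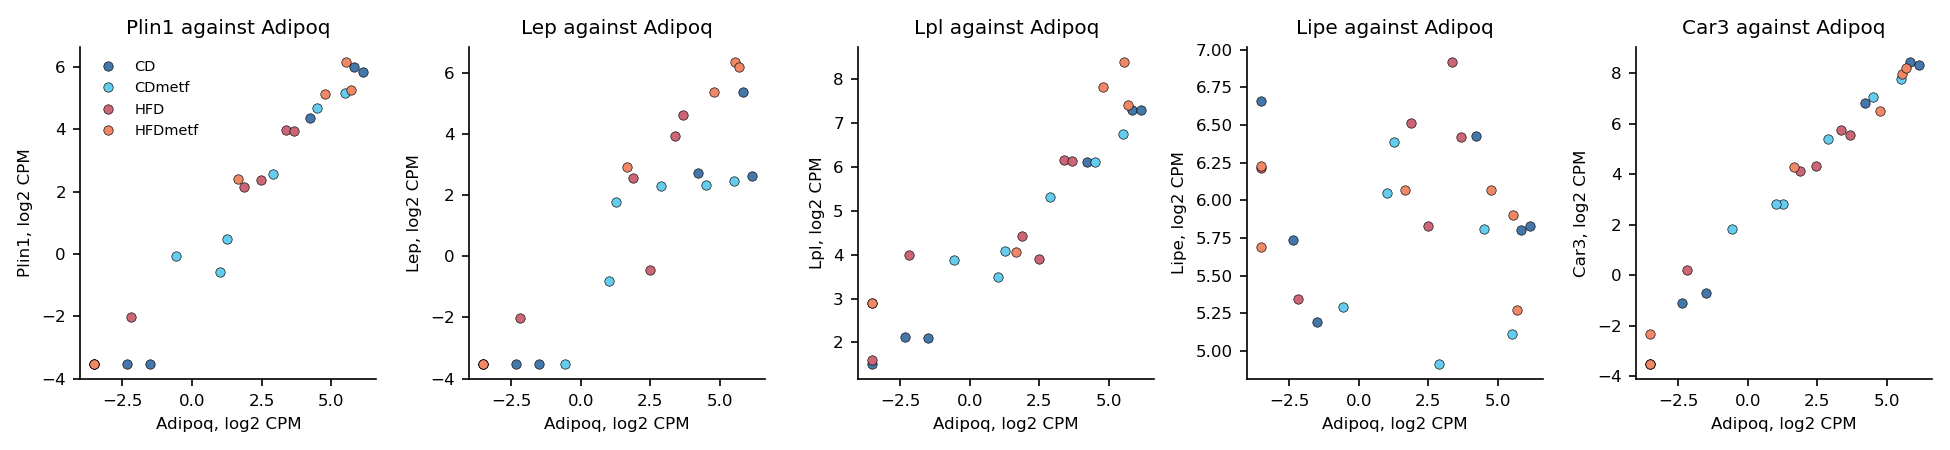
Log2 CPM (prior count 1) of Plin1, Lep, Lpl, Lipe and Car3 against that of Adipoq, 1 point per library, coloured by group (24 libraries). Plin1 (r = 0.983) follows Adipoq in every group, Car3 does so by eye, and Lipe (r = -0.08) shows no trend with it.

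Among 13495 other genes, *Car3*, a carbonic anhydrase abundant in fat and slow muscle, was most like the mean log2 CPM of the 10 members (r = 0.968, rho = 0.983 over 24 libraries). *Trarg1* (r = 0.942), which acts in insulin-dependent glucose transporter traffic, *Apol6* (0.926), *Abcd2* (0.925), a peroxisomal fatty acid transporter, A530016L24Rik (0.924), *Paqr9* (0.918), *Ccdc80* (0.904), *Tenm4* (0.899), *Mrap* (0.880) and *Phlda3* (0.879) followed. *Car3* ran from 0 to 349 CPM and had at most 3.50 CPM in the 7 libraries with fewer than 3 *Adipoq* reads. These libraries share depth and composition differences, and the likeness is a ranking without a test.

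No member passed the test in any contrast of groups. In HFD vs. CD, edgeR's quasi-likelihood test called 0 of 10 members at a Benjamini-Hochberg adjusted p (FDR) under 0.05, against 0% of the 13505 genes, and 2 of 10 at an unadjusted p under 0.05, against 4.75% of all genes. These were *Cfd* (logFC = -4.17, SE 1.39, FDR = 0.995) and *Retn* (logFC = -3.32, SE 1.31, FDR = 0.995), whose HFD and CD libraries overlapped. This count was 1 without CD M3 or CD F1 and 5 without CD M1, CD M2, CD F3, HFD M3 or HFDmetf F2, while limma-voom gave its largest values to *Lep* (4.16) and *Plin1* (4.16), both positive. In HFDmetf vs. CDmetf, 0 of 10 were called (0% of all genes) and 1 of 10, *Lep* (logFC = 3.66, SE 1.51, FDR = 0.626), had an unadjusted p under 0.05, against 7.55% of all genes. Without HFDmetf F2 its logFC was 2.07. In HFDmetf vs. HFD, 0 of 10 were called (0% of all genes) and *Plin4* alone had an unadjusted p under 0.05 (logFC = 1.51, SE 0.69, FDR = 0.620), against 6.87% of all genes. In CDmetf vs. CD, no member was called (0% of all genes) and none had an unadjusted p under 0.05, against 5% of all genes. The contrasts share groups, so their values are not separate evidence. In none of these 4 contrasts did the 6 and 6 libraries of a member fail to overlap, against 0.0889% of all genes in HFD vs. CD, 0.0889% in HFDmetf vs. CDmetf, 0.0296% in HFDmetf vs. HFD and 0.133% in CDmetf vs. CD.

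The direction of the fitted difference depended on the tool, both for members that reach 0 reads and for some that were read in every library. In HFD vs. CD, the quasi-likelihood logFC of *Adipoq* was -2.72 and that of limma-voom, the method of the study, was 2.78. For *Plin1* the pair was -2.58 and 4.16. *Lpl*, read in all 24 libraries, gave -1.25 and 0.63. In CDmetf vs. CD, limma-voom turned the sign of 8 of 10 members, *Lpl* (-1.30 and 1.12), *Fabp4* (-1.01 and 0.10) and *Cidec* (-0.06 and 0.20) among them, and DESeq2 of 0. CD held both the highest *Adipoq* libraries (CD F2 and CD M3) and 3 libraries with fewer than 3 reads. Over all genes, DESeq2 called 12 in HFD vs. CD, 4 in HFDmetf vs. CDmetf, 0 in HFDmetf vs. HFD, 4 in CDmetf vs. CD and 54 in the averaged diet contrast. Limma-voom called 0, 0, 0, 0 and 4 genes in the same order, and with sample quality weights 1425, 822, 2429, 32 and 879 of 13505. The study itself reported genes at an FDR under 0.05 by limma-voom in every contrast between its groups. Plain limma-voom did not reproduce those calls here, and the reason was not tested. No member reached an FDR under 0.05 by any of the tools.

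**Figure D3:**
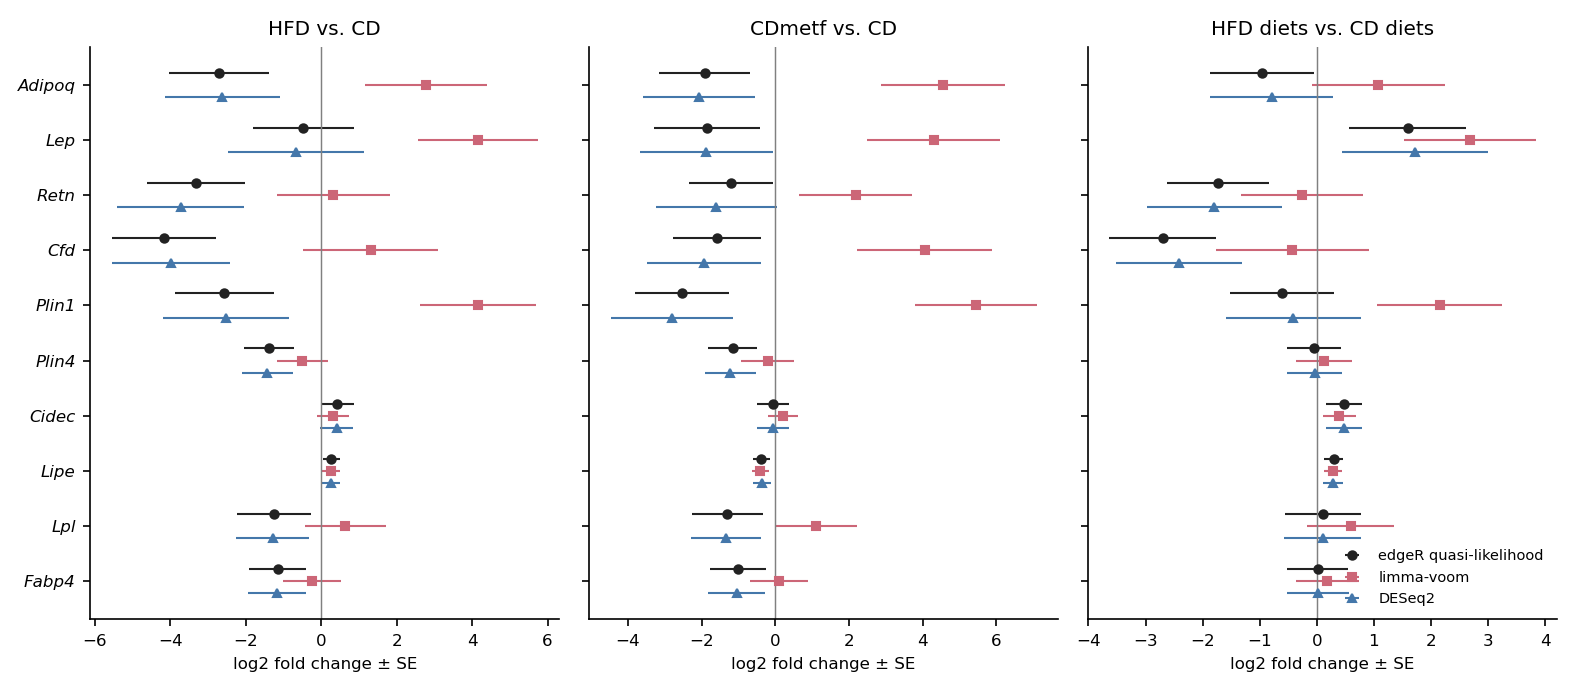
Log2 fold change ± SE of the 10 genes in HFD vs. CD, CDmetf vs. CD and the averaged diet contrast by edgeR's quasi-likelihood test, limma-voom and DESeq2 (24 libraries). For Adipoq and Plin1 in the first panel the estimates lie on opposite sides of 0, while those of Cidec and Lipe nearly coincide.

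Averaged over metformin (HFD and HFDmetf against CD and CDmetf), edgeR's quasi-likelihood test called 0 of 10 members (0% of all genes), with 5 positive and 5 negative logFC and a median of -0.02, against 0.01 over all genes. *Cfd* had the largest difference (logFC = -2.70, SE 0.93, FDR = 0.584) and was the 1 member with an unadjusted p under 0.05, against 5.95% of all genes. The other adipokines were *Retn* (-1.73, SE 0.90), *Lep* (1.59, SE 1.03, and 0.65 without HFDmetf F2) and *Adipoq* (-0.96, SE 0.91, and -1.72 without HFDmetf F2). The droplet coat genes gave -0.61 for *Plin1*, -0.05 for *Plin4* and 0.48 for *Cidec*, and *Lipe* gave 0.29, *Lpl* 0.10 and *Fabp4* 0.02. Leaving out a single library turned the sign of *Plin4*, *Lpl* or *Fabp4*, whose estimates lay near 0. Limma-voom turned *Adipoq* (1.08), *Plin1* (2.16) and *Plin4* (0.12), and gave -0.43 for *Cfd* and -0.26 for *Retn*.

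In the interaction of diet and metformin, 0 of 10 members were called by the quasi-likelihood test (0% of all genes) and 4 had an unadjusted p under 0.05, against 5.76% of all genes. These were *Lep* (logFC = 4.14, SE 1.98), *Plin1* (3.93, SE 1.83), *Plin4* (2.66, SE 0.95) and *Fabp4* (2.34, SE 1.09), all with FDR = 0.815. Their levels rise and fall together across libraries, so the 4 are not separate evidence. The count of members with an unadjusted p under 0.05 was 0 without CD M3, 0 by limma-voom, 1 with the robust fit and 7 without CD M1 or CD M2. It was 6 without CD F3, HFD M3, HFDmetf M3 or HFDmetf F3. It was 1 without CD F1, CD F2, CDmetf F2, CDmetf F3, HFD M2, HFD F2, HFD F3, HFDmetf M1 or HFDmetf F2, and 2 without CDmetf M2, CDmetf M3, CDmetf F1 or HFD M1. Without CD M3 the value of *Lep* was 1.50 and that of *Plin1* 2.37. Limma-voom gave negative values for *Lep* (-2.94) and *Plin1* (-4.01). In the interaction of diet and sex, 0 of 10 members were called (0% of all genes) and *Lipe* alone had an unadjusted p under 0.05 (logFC = 0.74, SE 0.29, FDR = 1), against 2.48% of all genes.

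In male vs. female, 0 of 10 members passed an FDR under 0.05 by the quasi-likelihood test, against 0.0074% of all genes, and 6 had an unadjusted p under 0.05 with a higher level in males, against 3.97% of all genes higher and 7.23% in either direction. These 6 were *Plin1* (logFC = 2.72, SE 1.00), *Cfd* (2.41, SE 0.96), *Adipoq* (2.14, SE 0.97), *Lpl* (1.66, SE 0.72), *Fabp4* (1.21, SE 0.56) and *Plin4* (1.05, SE 0.49), with FDR of 0.623 to 0.681. The levels of these 6 rise and fall together across libraries, so they are not separate evidence. With HFD M2 and HFD F2 left out, since both go against their sex labels, 7 members had an unadjusted p under 0.05 and 0 were called. This count rested on single libraries and on the tool: it was 0 without CD M3, 1 without HFDmetf M1, 0 with no replicate block, 0 by limma-voom and 6 by DESeq2. The 4 female libraries of replicate number 3 held 0.110 (CD), 1.92 (CDmetf), 0.134 (HFD) and 0 CPM (HFDmetf) of *Adipoq*.

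*Lep* stood higher relative to *Adipoq* and *Plin1* on the high-fat diets. A fit with the mean log2 CPM of *Adipoq* and *Plin1* as a further term, added after the values were seen, compared the diets at an equal level of these genes. *Lep* was then higher on HFD (logFC = 2.43, SE 0.38, FDR = 0.0407, edgeR's quasi-likelihood test), and it was the 1 gene called of 13505 (0.0074%). The values were 2.59 in HFD vs. CD (FDR = 0.632, 0% of all genes called) and 2.27 in HFDmetf vs. CDmetf (FDR = 0.254, 0% called). *Cfd* went the other way (logFC = -1.78, SE 0.45, FDR = 0.226) without passing. An unadjusted p under 0.05 was found for 4 of the 8 members outside the added term, *Lep*, *Cfd*, *Lpl* (0.62, SE 0.23, FDR = 0.547) and *Cidec* (0.54, SE 0.24, FDR = 0.659), against 7.06% of all genes. *Retn* (-0.78, SE 0.40), *Lipe* (0.29, SE 0.17), *Fabp4* (0.27, SE 0.20) and *Plin4* (0.16, SE 0.18) had an unadjusted p above 0.05. For *Plin4* and *Fabp4* this average joined opposite signs, unlike for *Retn* and *Lipe*. *Plin4* gave -0.76 in HFD vs. CD (FDR = 0.728) and 1.07 in HFDmetf vs. CDmetf (FDR = 0.254). *Fabp4* gave -0.41 (FDR = 0.894) and 0.95 (FDR = 0.341). The interaction of diet and metformin at equal level was 1.83 for *Plin4* (FDR = 0.308) and 1.37 for *Fabp4* (FDR = 0.412).

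The call for *Lep* was not stable, whereas its direction was. It was called with 8 of the 24 single libraries left out and under 8 of 12 other settings, and the logFC stayed between 1.73 and 2.71 throughout. The FDR was 0.137 with DESeq2, 0.0564 with the robust fit, 0.351 without the replicate block (logFC = 1.73) and 0.643 in the 17 libraries with at least 10 reads on *Adipoq* and *Plin1* (logFC = 2.39). With libraries left out it ranged from 0.000354 without CDmetf F1 to 0.190 without CDmetf M2. By limma-voom the FDR was 0.00967, though 14.7% of the calls of limma-voom on simulated counts of the averaged diet contrast were false. At equal level, limma-voom called 9 genes over all and DESeq2 77. *Lep* reads were few in several libraries, and 7 libraries held none.

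The read counts themselves show the same proportion. *Lep* reads as a share of *Lep*, *Adipoq* and *Plin1* reads averaged 18.9% ± 14.2 (SD, n = 8) on CD and 37.9% ± 12.7 (SD, n = 9) on HFD, with metformin groups included. The difference of 18.99 percentage points had p = 0.0145 in an exact permutation test (two-sided, adjusted p = 0.0434 over the 3 adipokines). The share tests were added after the values were seen and covered only *Lep*, *Cfd* and *Retn*, so their p-values are descriptive. The exceptions to the order were CDmetf F1 with 47.6% (10 *Lep* reads beside 11, exact 95% interval 25.7% to 70.2%) and HFD M2 with 5.71% (2 reads beside 33, 0.700% to 19.2%). HFD M2 is a library that goes against its sex label. In the 14 libraries with at least 50 reads on *Adipoq* and *Plin1*, a limit set after the values were seen, the diets did not overlap. The limit leaves out both exceptions and HFD F3, so p-values at this limit, also those of *Cfd* and *Retn*, are descriptive only. Such shares were not computed for genes outside the members. As ratios to *Adipoq* and *Plin1* reads, other members also had higher medians on HFD where at least 10 such reads were found. The medians on CD and HFD were 1.04 and 2.59 for *Cidec*, 1.69 and 4.70 for *Lipe*, and 1.60 and 2.69 for *Lpl*. They were 1.25 and 1.87 for *Fabp4* and 1.01 and 1.09 for *Plin4*, with overlapping ranges and no test. In the 14 libraries the *Lep* share ran from 4.56% to 27.0% on CD (median 14.4%). On HFD it ran from 37.1% to 47.6% (median 42.3%, exact permutation p = 0.000583, adjusted p = 0.00175). The 3 HFD and 4 HFDmetf libraries among them covered 37.1% to 47.0% and 39.9% to 47.6%.

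*Cfd* reads showed the opposite order. Their share of *Cfd*, *Adipoq* and *Plin1* reads was 31.9% ± 18.1 (SD, n = 8) on CD and 17.6% ± 14.2 (SD, n = 9) on HFD (exact permutation p = 0.0910, adjusted p = 0.136). In the 14 libraries with at least 50 reads it ran from 20.3% to 59.3% on CD and from 3.69% to 20.5% on HFD, overlapping by a single library on each side (exact permutation p = 0.00117, adjusted p = 0.00175). HFD M2 held 50.7%, above the other HFD libraries. For *Retn* the shares in all 17 libraries were 9.47% ± 5.11 on CD (n = 8) and 6.57% ± 6.34 on HFD (n = 9; exact permutation p = 0.322, adjusted p = 0.322). In the 14 libraries with at least 50 reads they were 10.8% ± 3.65 and 4.96% ± 3.41 (n = 7 each; exact permutation p = 0.0122, adjusted p = 0.0122). The reference pair itself was not tested, and its ranges overlapped: *Adipoq* made up 47.0% to 76.6% of *Adipoq* and *Plin1* reads on CD (median 55.3%) and 37.1% to 57.7% on HFD (median 43.5%) in the 14 libraries.

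**Figure D4:**
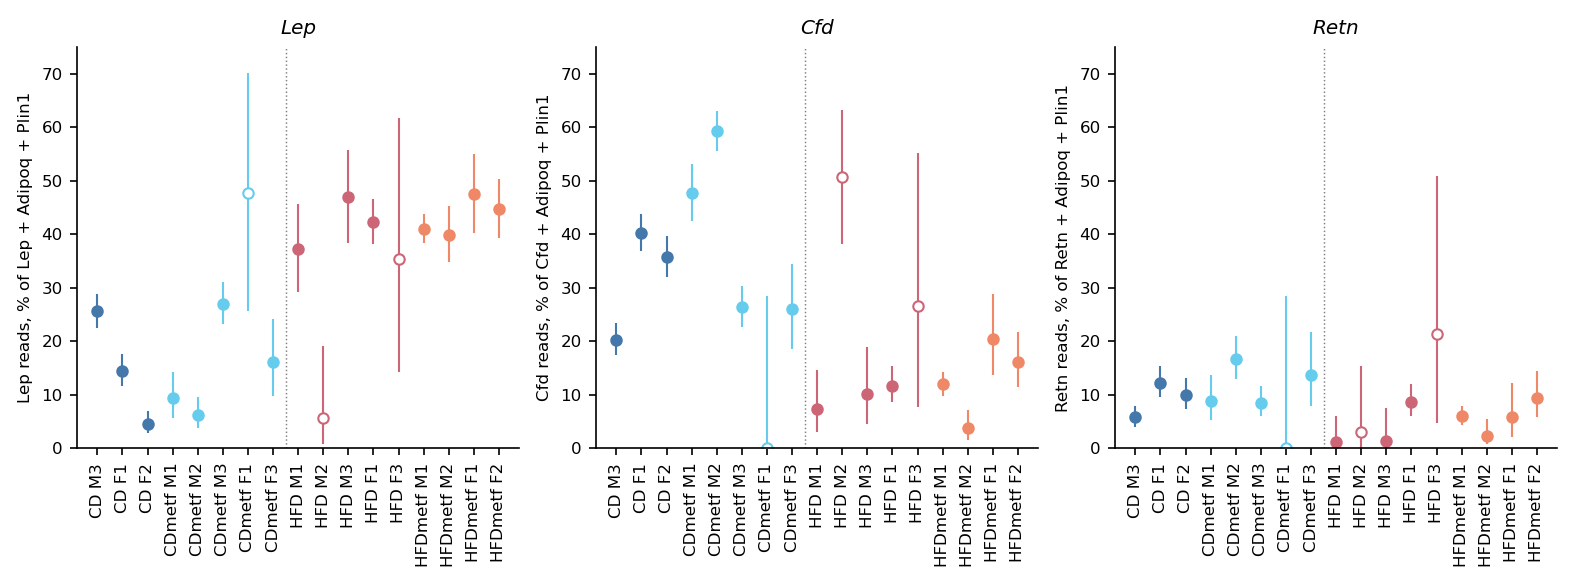
Reads of Lep, Cfd and Retn as a percentage of that gene plus Adipoq and Plin1 in the 17 libraries with at least 10 reads on Adipoq and Plin1, with exact 95% binomial intervals (counting error only); open points have under 50 reads and the dotted line separates CD diets (left) from HFD diets (right). Filled Lep points lie at 4.56% to 27.0% on CD and 37.1% to 47.6% on HFD.

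Of 41 further adipocyte genes, 35 were tested and 0 passed in the averaged diet contrast by the quasi-likelihood test (0% of all genes), with 3 higher and 4 lower at an unadjusted p under 0.05 (3.38% and 2.56% of all genes) and a median logFC of -0.05. *Scd1*, a fatty acid desaturase, ran from 14.8 to 3442 CPM (logFC = -1.47, FDR = 0.853), and *Fasn*, the fatty acid synthase, from 52.4 to 1124 CPM (logFC = -1.07, FDR = 0.565). *Gpd1*, a glycerol phosphate enzyme, gave 0.18. Among droplet proteins, *Plin2* gave 0.53 (FDR = 0.376), *Plin3* 0.12 and *Bscl2*, seipin, -0.04. Of the lipolysis genes, *Pnpla2*, the first triglyceride lipase of the droplet, gave -0.16, *Mgll* 0.33 and *Pde3b* -0.05. Of the fatty acid genes, *Cd36*, a fatty acid translocase, gave 0.94 (FDR = 0.675), *Aqp7*, a glycerol channel, 0.53 and *Angptl4*, an inhibitor of lipoprotein lipase, 0.40. Of the other adipokines, *Nampt* gave -0.27, *Rarres2*, chemerin, 0.10 and *Nrg4* -0.11. All of these had an FDR above 0.05.

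Receptors and binding proteins of adipokines were read in every library. None of 6 receptor genes was called in the averaged diet contrast (0% of all genes). *Adipor2* ran from 196 to 705 CPM (logFC = 0.34, FDR = 0.822), *Cap1*, a resistin-binding protein, from 186 to 430 CPM (-0.08) and *Adipor1* from 91.7 to 193 CPM (-0.11). The exons of *Cap1* overlap *Ppt1* on the other strand, and those of *Bscl2*, *Rarres2*, *Nrg4*, *Mgll* and *Gpd1* also overlap other genes, so these levels are uncertain to that extent. Correlation of log2 CPM with the mean of the 10 members over 24 libraries was -0.60 for *Adipor2*, -0.40 for *Cap1* and -0.55 for *Adipor1*. That of the other 3 receptor genes was 0.59 (*Cdh13*), 0.29 (*Tlr4*) and 0.19 (*Lepr*), as a description. The brown fat gene *Ucp1* had 0 reads in 23 of 24 libraries.

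Some markers of other tissue layers rose with the members and others fell. The summed CPM of the 10 members ran from 77.0 to 982 CPM. This sum includes *Lipe* and *Cidec*, which were read where the adipokines were not, so its low end does not measure fat cells alone. CD M1, with 0 reads of *Adipoq*, had a sum of 155 CPM, and *Lipe* there was at 101 CPM. With this sum on a log2 scale, r over 24 libraries was -0.59 (rho = -0.48) for 7 epithelium markers and 0.45 (rho = 0.38) for 7 smooth muscle markers. It was 0.52 (rho = 0.38) for 7 fibroblast markers, 0.50 (rho = 0.49) for 6 endothelium markers, 0.49 (rho = 0.39) for 5 macrophage markers and 0.42 (rho = 0.42) for 6 mesothelium markers. For 5 B-cell markers it was -0.15 (rho = -0.09), for 10 pancreas acinar markers -0.09 (rho = -0.08), for 6 skeletal muscle markers 0.21 (rho = 0.10) and for 7 thermogenic fat markers -0.55 (rho = -0.45). The last sum was mostly *Ppargc1a* (26.2 to 148 CPM) and *Cox7a1* (3.45 to 51.9 CPM), while *Elovl3* had 0 reads and *Cidea*, *Cox8b* and *Dio2* at most 1.52 CPM, so it does not measure thermogenic fat. With the mean of the members, r was -0.58 for *Ppargc1a*, -0.54 for *Cox7a1*, 0.43 for *Cidea*, 0.26 for *Cox8b* and 0.18 for *Dio2*. Single genes also went against their list: r with the mean of the members was 0.12 for *Cdx1* (epithelium), -0.19 for *Tagln* (smooth muscle) and -0.08 for *Upk1b* (mesothelium). Without the 2 libraries farthest from the median member sum, r was -0.49 for epithelium, 0.42 for fibroblasts and 0.39 for smooth muscle. It was 0.36 for macrophages, 0.35 for endothelium and 0.32 for mesothelium. The summed epithelium markers ran from 5876 to 10658 CPM in CD, from 7202 to 12393 in CDmetf, from 8030 to 10866 in HFD and from 3890 to 9909 in HFDmetf. The summed mesothelium markers ran from 11.3 to 48.2, from 11.9 to 49.04, from 9.30 to 53.7 and from 20.7 to 63.1 CPM in the same order. These are descriptions without a test, since the members were chosen, and the part of tissue composition in the result was not tested. Whether the fat cells came from attached mesentery or from within the gut wall cannot be told apart in these libraries.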

How the data were processed

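The authors deposited one table of raw read counts per gene, made after Trimmomatic 0.39 trimming (window of 5 at quality 25, reads of at least 30 bp kept) by STAR 2.5.3a, which mapped to GRCm38 and counted per gene. Strand setting and annotation release are not given in the sources used here. Rows that name no gene (unmapped, multimapping, ambiguous) took 35.5% to 75.7% of the reads in the table and were left out. RefSeq promoters of GRCm38.p6 and Ensembl gene symbols came from reference tables.

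From the counts, edgeR 4.0.16 in R 4.3.3 was used with filterByExpr by group (13505 genes), TMM and the quasi-likelihood test on all 24 libraries, modelling group, labelled sex and replicate number and leaving 17 degrees of freedom. P-values were adjusted by Benjamini-Hochberg across all genes (FDR). The study used sex and block as covariates. The replicate number of the labels stood in for the block here, which is an assumption, since no source ties numbers to blocks. CPM used TMM, and log2 CPM a prior count of 1. Alternatives were limma-voom 3.58.1 (plain and with sample quality weights), DESeq2 1.42.0, RLE, other filters, a robust fit, no replicate block, the 12 compared libraries and leaving out libraries. Replicate libraries differed by more than sampling noise.

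On simulated counts of the averaged diet contrast (13505 genes, 200 changed), the quasi-likelihood test called 89% of 100 genes with a log2 change of 1 and 98% of 100 with 2. The changed genes were drawn at random from all genes tested, so these shares do not apply to the members. Of the simulated calls at an FDR under 0.05, 3.61% were false by the quasi-likelihood test, 14.7% by limma-voom and 12.0% by DESeq2. In the fit of the real counts, the SE was 0.91 for *Adipoq*, 1.03 for *Lep*, 0.93 for *Cfd* and 0.91 for *Plin1*. Changes of that size could be missed in these genes. Named were the 10 members, the 3 most abundant of each role in the other adipocyte genes and of the receptors, and the 10 genes most like the mean log2 CPM of the members. *Ucp1* and further receptor and thermogenic genes were named after its values were seen. The members and lists were chosen with earlier results of these data known, and the fits at equal *Adipoq* and *Plin1* level, the shares of reads and the sex comparison were added after the values were seen. The summed member level was correlated without a test.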

Additional observations from a re-analysis of the deposited data

Results flagged for a closer look

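In 40 gene and group combinations of 6 libraries each, the highest or lowest library was compared with its nearest neighbour by Dixon's gap over range (critical value 0.625). In normally distributed values, chance exceeds it in about 5% of groups. CPM of these genes is skewed and most members follow each other, so the share to be found by chance here is not known. Of the 40 combinations, 4 exceeded the critical value. *Lep* in CD M3 stood at 41.5 CPM with the next CD library at 6.55. *Retn* in CDmetf M2 stood at 16.3 CPM with the next at 4.64, and *Cfd* in the same library at 118 CPM with the next at 43.5. *Cfd* in HFD M2, which goes against its sex label, stood at 10.9 CPM with the next HFD library at 3.14.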

How the results depend on the processing

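No member was called in any of the 8 contrasts of groups or sex under any of 276 fits with other settings, also where sample quality weights called up to 2429 of 13505 genes (HFDmetf vs. HFD). At equal *Adipoq* and *Plin1* level the count of 1 called member became 2 with sample quality weights in limma-voom (*Cfd* as well, logFC = -2.48, with 429 of 13505 genes called against 1) and 0 with DESeq2, the robust fit, no replicate block and only the libraries with at least 10 reads on *Adipoq* and *Plin1*. It ranged from 0 to 1 with single libraries left out. Without the replicate block no other count of called members moved. Deviations from group means correlated at 0.131 on average between libraries of the same number (lowest -0.479) and at -0.06 between different numbers. Libraries of the same number were thus slightly more alike on average, though not in every pair. Differences between numbers took a larger share of the sum of squares of log2 CPM than those between groups, except for *Plin4*, *Lpl* and *Fabp4*. This share was largest for *Lipe* and *Cidec*. Whether the number stands for a block was not tested. The sign turned with limma-voom for *Retn* (0.31) and *Cfd* (1.31) in HFD vs. CD, for *Adipoq* (1.08), *Plin1* (2.16, and 0.72 with quality weights) and *Plin4* (0.12) in the averaged diet contrast, and for *Lep* (-2.94, and -0.87 with quality weights) and *Plin1* (-4.01, and -1.86) in the interaction of diet and metformin. In the averaged diet contrast *Plin4* was also 0.11 with HFD M2 and HFD F2 left out and 0.041 with no replicate block, and *Fabp4* was -0.075 with quality weights and -0.0044 with no filter. With single libraries left out, *Plin4* ranged from -0.34 to 0.19, *Lpl* from -0.28 to 0.44 and *Fabp4* from -0.40 to 0.31. HFDmetf F2 gave the lowest value of each and CD F2 the highest. The strict filter left out *Retn*. Depth limits the libraries with few reads, where 0 reads allow up to 1.48 CPM.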
